A study of Mus musculus with 10 samples.

Results

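The cholesterol synthesis and SREBP2 target set comprised 8 genes: Srebf2, Hmgcs1, Sqle, Insig1, Cyp51, Idi1, Fdft1 and Ebp. They were taken by symbol, with no threshold on measured values, and each was followed through every probe set annotated to it alone. These genes and the lists below were, however, chosen with earlier results of these data known. Counts of calls among them are therefore a description and no independent test. That gave 12 of the 45037 probe sets on the array that are not controls, and 8 of the 17097 genes represented. Where a gene had several probe sets, the main one was that with the highest mean over the 10 arrays. All 8 genes passed the filter on dim genes (level above the median of the array on at least 2 arrays), as did 11037 genes in all.

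The arrays carried RNA of spleen cells of DBA/1 mice, sorted by flow cytometry after bead-based negative selection of CD4+ cells. CD4+ cells of naive mice, which received no dendritic cells, gave 2 arrays. The other 3 groups came from mice given 3 intraperitoneal injections of 500000 immature dendritic cells, at 7, 5 and 3 days before death: CD4+ cells (2 arrays), CD49b+ cells (3 arrays) and CD25+ cells (3 arrays). CD49b is an integrin chain encoded by Itga2, and CD25 is a chain of the interleukin-2 receptor encoded by Il2ra. Cells of several mice were pooled for sorting, and the labels do not say that replicates came from separate pools, so the p-values measure the spread between these arrays, which may be technical. The labels also do not say whether CD49b+ or CD25+ cells had been taken out of the CD4+ groups, or CD25+ cells out of the CD49b+ group. Naive CD49b+ or CD25+ cells were not analysed here, so subset and injection cannot be told apart in those groups.

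Cholesterol is built from acetyl-CoA through mevalonate, isoprenoid diphosphates, squalene and lanosterol, and dividing lymphocytes need it for new membrane. Most enzymes of the route are induced by SREBP2, the product of Srebf2, a membrane-bound transcription factor that SCAP escorts to the Golgi when sterols are scarce, where the proteases encoded by Mbtps1 and Mbtps2 release its active part. When sterols are plentiful, INSIG proteins hold SCAP and SREBP2 in the endoplasmic reticulum; Insig1 is itself an SREBP target, as is Srebf2.

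Between CD4+ cells of injected and of naive mice, no gene of the set passed the test. Values here are deposited log2 expression values, differences are log2 differences ± SE from limma over all 11037 genes, and a call is a Benjamini-Hochberg adjusted p under 0.05. In this comparison 0 of 8 genes were called, beside 0.0272% of all tested genes called higher and 1.36% called lower; at an unadjusted p under 0.05 there was 1, Sqle, lower in injected mice (−0.39 ± 0.14, adjusted p = 0.256). Their median difference was −0.08, against −0.03 over all genes.

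In CD49b+ cells, 6 of the 8 genes (Srebf2, Idi1, Fdft1, Sqle, Cyp51 and Ebp) were higher than in CD4+ cells of injected mice and 2 (Hmgcs1 and Insig1) were lower. This comparison moved much of the array: 29.9% of all tested genes were called higher and 23.5% lower. The median difference of the 8 genes was 0.58, against 0.03 over all genes. In bulk RNA, a change in the share of a cell type and a change in RNA per cell cannot be told apart. When arrays were centred on their own medians, the median over all genes became 0.22 and the share of calls in the higher direction went from 56.0% to 78.3%. With that centring, the calls of Hmgcs1 and Insig1 were lost.

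In CD25+ cells, 3 of the 8 genes (Idi1, Fdft1 and Ebp) were higher than in CD4+ cells of injected mice and 0 were lower, where 20.8% of all tested genes were called higher and 17.8% lower. The median over the 8 genes was 0.02, as over all genes. With median centring, the median over all genes was 0.18 and the share of calls in the higher direction went from 53.9% to 78.6%. Set against CD25+ cells, CD49b+ cells had 4 of the 8 genes higher (Srebf2, Sqle, Cyp51 and Ebp) and 0 lower, with 17.5% of all tested genes called higher and 12.4% lower. The median of the 8 was 0.45, against 0.03 over all genes. With the replicate number as a block, Fdft1 (higher) and Insig1 (lower) were called as well. These last 3 comparisons share arrays, so their results are not independent of each other.

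**Figure D1:**
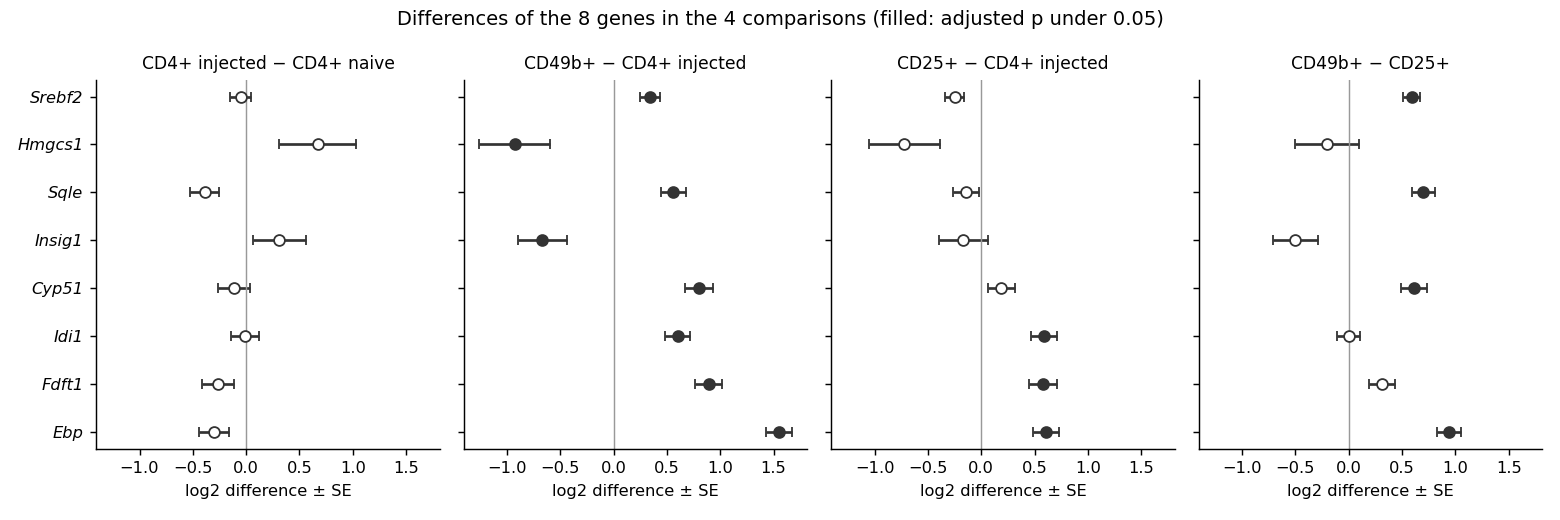
Log2 difference ± SE (horizontal axis) of the 8 genes in each of the 4 comparisons, from the main probe set, with filled points for an adjusted p under 0.05. No point is filled between the CD4+ groups, and in CD49b+ cells against CD4+ cells of injected mice all 8 are, with Hmgcs1 and Insig1 left of 0.

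Promoter sequences from RefSeq (assembly GRCm38.p6, 250 bases before to 50 after the annotated start) were available for 6 of the 8 genes. The following 5 are shown because they hold the regulators Srebf2 and Insig1, the gene with the largest difference, Ebp, and enzymes on either side of 0 in CD49b+ cells, Hmgcs1 and Cyp51. Capitals mark matches, on either strand, to TCACNNCA (a relaxed form of the sterol regulatory element, to which SREBPs bind) and to CCAAT (the core of the NF-Y site). The letters of the first were chosen after the sequences had been seen. Srebf2 lies on the plus strand at chr15:82147019-82147318, Insig1 on the plus strand at chr5:28071162-28071461, Hmgcs1 on the plus strand at chr13:119690101-119690400, Cyp51 on the minus strand at chr5:4104648-4104947 and Ebp on the minus strand at chrX:8193463-8193762, each read 5′ to 3′ along its gene.
Srebf2: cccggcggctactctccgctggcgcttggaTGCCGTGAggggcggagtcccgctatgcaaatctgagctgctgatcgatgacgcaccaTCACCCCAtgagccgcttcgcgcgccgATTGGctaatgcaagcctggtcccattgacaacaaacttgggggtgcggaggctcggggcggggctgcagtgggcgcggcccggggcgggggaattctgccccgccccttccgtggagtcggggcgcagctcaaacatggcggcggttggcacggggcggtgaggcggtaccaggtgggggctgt
Insig1: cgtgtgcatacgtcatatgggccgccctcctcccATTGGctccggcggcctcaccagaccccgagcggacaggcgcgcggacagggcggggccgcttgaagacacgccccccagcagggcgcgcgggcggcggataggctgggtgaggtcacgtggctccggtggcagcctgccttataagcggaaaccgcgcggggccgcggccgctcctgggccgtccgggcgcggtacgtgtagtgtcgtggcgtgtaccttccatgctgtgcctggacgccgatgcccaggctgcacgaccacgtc
Hmgcs1: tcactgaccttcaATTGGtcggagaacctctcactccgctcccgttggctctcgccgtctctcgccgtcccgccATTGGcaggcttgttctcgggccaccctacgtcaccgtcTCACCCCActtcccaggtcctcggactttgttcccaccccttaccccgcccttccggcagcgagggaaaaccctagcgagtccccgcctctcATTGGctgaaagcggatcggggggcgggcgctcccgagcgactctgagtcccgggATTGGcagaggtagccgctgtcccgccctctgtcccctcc
Cyp51: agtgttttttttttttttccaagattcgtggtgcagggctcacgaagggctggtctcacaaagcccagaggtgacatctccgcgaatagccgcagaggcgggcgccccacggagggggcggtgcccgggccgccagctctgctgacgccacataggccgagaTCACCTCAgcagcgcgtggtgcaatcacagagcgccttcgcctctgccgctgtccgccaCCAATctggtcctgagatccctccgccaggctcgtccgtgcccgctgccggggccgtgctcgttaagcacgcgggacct
Ebp: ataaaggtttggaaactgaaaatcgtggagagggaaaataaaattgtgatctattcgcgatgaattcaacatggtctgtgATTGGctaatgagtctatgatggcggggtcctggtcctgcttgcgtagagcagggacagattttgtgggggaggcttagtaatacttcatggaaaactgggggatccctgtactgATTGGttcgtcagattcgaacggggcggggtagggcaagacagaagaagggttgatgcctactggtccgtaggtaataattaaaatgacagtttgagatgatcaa

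TCACNNCA occurred in 3 of the 6 promoters (Srebf2, Hmgcs1 and Cyp51) and in 13.8% of the 32851 RefSeq mouse promoters of this length. Its stricter form TCACNCCA, all of whose matches are also matches to the relaxed one, occurred in Srebf2 (positions −162 to −155 from the start) and in Hmgcs1 (−137 to −130), and in 4.36% of all promoters. In Cyp51 the relaxed match lay at −88 to −81. CCAAT was present in all 6, against 37.4% of all promoters, and GGGCGG, the core of the Sp1 site, also in all 6, against 35.7%. A CACGTG box was found in Insig1 alone (−101 to −96), and in 7.15% of all promoters. Of the 2 genes that carried the stricter match, Srebf2 was called higher and Hmgcs1 lower in CD49b+ cells than in CD4+ cells of injected mice. Neither direction was firm. A second probe set of Srebf2 differed by 0.03 (limma adjusted p = 0.735), and Hmgcs1 by −0.26 against naive mice (limma adjusted p = 0.537). A match is a description of the letters and not a measured binding site.

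Among the regulators, Srebf2 had log2 levels of 8.36 and 8.37 in CD4+ cells of naive mice and 8.23 and 8.41 in CD4+ cells of injected mice. Its levels were 8.54, 8.73 and 8.69 in CD49b+ cells, and 8.08, 8.13 and 7.99 in CD25+ cells. All CD49b+ arrays lay above, and all CD25+ arrays below, the 4 CD4+ arrays. CD49b+ cells exceeded CD4+ cells of injected mice by 0.34 ± 0.09 (adjusted p = 0.0117). That call was lost under quantile normalization (0.22, adjusted p = 0.0734) and without replicate 1 of the CD4+ cells of injected mice (0.24, adjusted p = 0.112). CD25+ cells differed from CD4+ cells of injected mice by −0.25 ± 0.09 (adjusted p = 0.0523), short of the threshold. That difference passed under quantile normalization (−0.34, adjusted p = 0.0181), with no filter on dim genes (adjusted p = 0.0334) and against naive mice (−0.30, adjusted p = 0.031). The 2 subsets differed by 0.59 ± 0.08, a 1.5-fold higher signal in CD49b+ cells (adjusted p = 0.000514).

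The other probe set of Srebf2, 1452174_PM_at, showed none of this. Its levels ran from 7.18 to 7.32 over the 10 arrays, and its differences were 0.03 ± 0.07 (CD49b+ against CD4+ of injected mice), 0.01 ± 0.07 (CD25+ against the same) and 0.02 ± 0.07 (CD49b+ against CD25+), with adjusted p of 0.735, 0.942 and 0.837. The 95% interval for the last difference, −0.12 to 0.17, does not reach the 0.59 of the main probe set. The rise of Srebf2 in CD49b+ cells therefore rests on 1 of its 2 probe sets.

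Insig1, whose product retains the SCAP and SREBP complex in the endoplasmic reticulum, had levels of 7.40 and 7.41 in CD4+ cells of naive mice and 7.60 and 7.82 in CD4+ cells of injected mice. It stood at 7.03, 7.37 and 6.70 in CD49b+ cells, and at 7.42, 7.98 and 7.21 in CD25+ cells. All CD49b+ arrays lay below the CD4+ arrays, while the CD25+ arrays overlapped the other groups. Insig1 was lower in CD49b+ cells than in CD4+ cells of injected mice by −0.67 ± 0.23 (adjusted p = 0.0328). Against naive mice the difference was −0.37 (adjusted p = 0.216). The call was also lost with median centring (−0.48, adjusted p = 0.1), without the arrays numbered 3 (−0.51, adjusted p = 0.0627), and without replicate 1 or 2 of the injected CD4+ group (−0.78 and −0.56, adjusted p = 0.0668 and 0.163) or replicate 1 or 3 of the CD49b+ group (−0.67 and −0.51, adjusted p = 0.0664 and 0.0968). In CD25+ cells the difference was −0.17 ± 0.23 (adjusted p = 0.589). Between CD49b+ and CD25+ cells it was −0.50 ± 0.21 (adjusted p = 0.0981), and it passed with the replicate number as a block (adjusted p = 0.00481), without replicate 2 of the CD49b+ group (−0.67, adjusted p = 0.0455) and without replicate 3 of the CD25+ group (−0.66, adjusted p = 0.0419). Replicates 1, 2 and 3 stood −0.01, 0.34 and −0.33 from the group mean in CD49b+ cells and −0.12, 0.45 and −0.33 in CD25+ cells.

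Hmgcs1 encodes the cytosolic synthase that makes HMG-CoA, the substrate for mevalonate. Only 1 probe set carried its symbol in the annotation used here, and the 15588 probe sets without a symbol were not searched for others. The signal was dim, with a mean of 5.06 where the array medians were 4.61 to 4.81. It was above the array's median on 8 of 10 arrays, the exceptions being replicate 3 of both subsets. Levels were 5.13 and 4.93 in CD4+ cells of naive mice, 5.51 and 5.88 in CD4+ cells of injected mice, 4.96, 5.11 and 4.23 in CD49b+ cells and 5.49, 5.08 and 4.34 in CD25+ cells. The highest levels were in CD4+ cells of injected mice, with all CD49b+ and CD25+ arrays below them. CD49b+ cells were lower by −0.93 ± 0.33 (adjusted p = 0.0377). CD25+ cells differed by −0.72 ± 0.33 (adjusted p = 0.11), and the 2 subsets by −0.20 ± 0.30 (adjusted p = 0.656). Set against naive mice, whose arrays the CD49b+ arrays overlapped, the difference was −0.26 (adjusted p = 0.537). The CD49b+ call was lost in 7 other settings, among them quantile normalization (−0.80, adjusted p = 0.0648) and median centring (−0.74, adjusted p = 0.0837). The 7 also include leaving out replicate 1 or 2 of the injected CD4+ group (−1.11 and −0.74, adjusted p = 0.0662 and 0.19) or replicate 3 of the CD49b+ group (−0.66, adjusted p = 0.108). In CD25+ cells the difference passed without replicate 1 of those cells (−0.98, adjusted p = 0.0414).

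**Figure D2:**
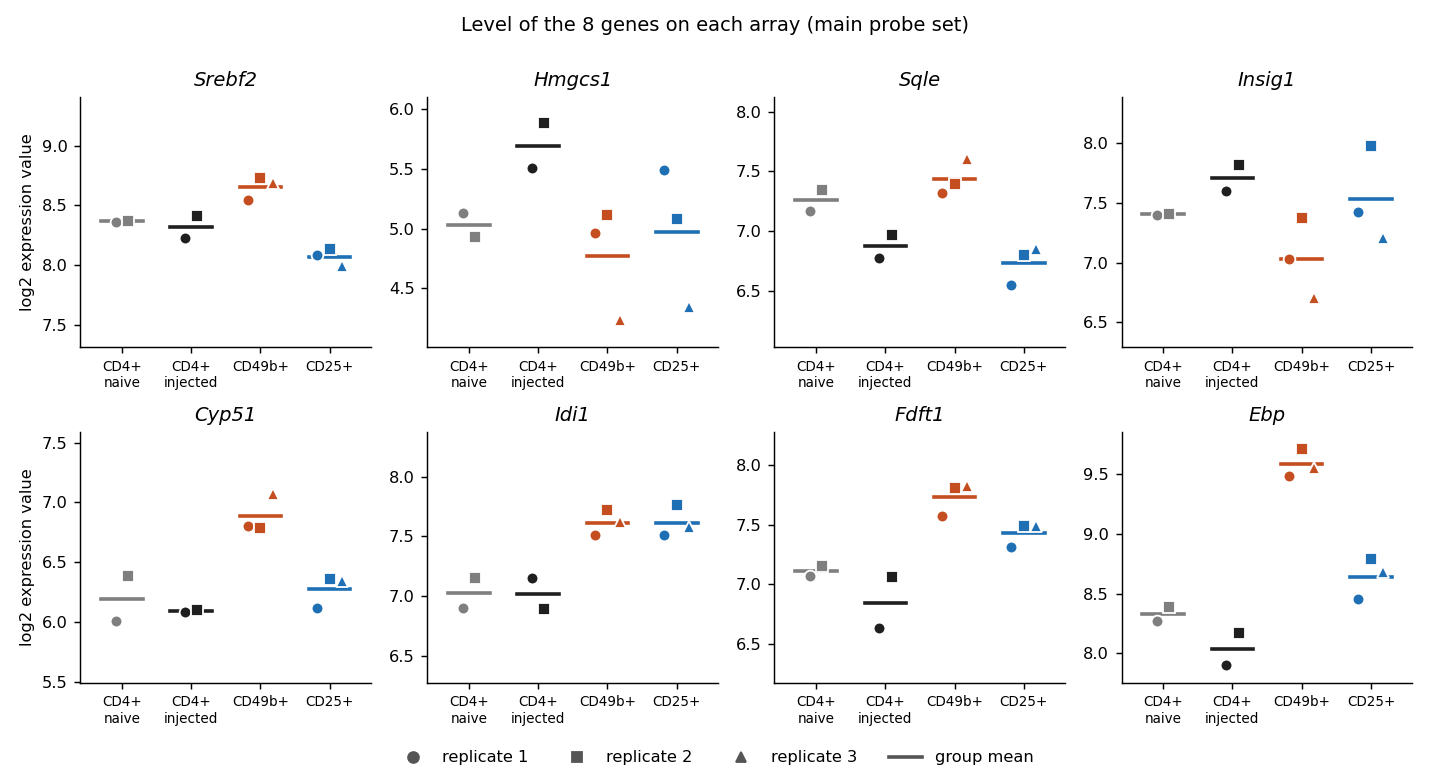
Log2 expression value (vertical axis, each panel spanning the same number of log2 units) of the 8 genes on each of the 10 arrays, grouped by cell population, with lines at the group means and symbols for the replicate number. Ebp and Fdft1 are highest in CD49b+ cells on every array, whereas Hmgcs1 and Insig1 are spread widely within both subsets.

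Idi1 encodes the isomerase that interconverts isopentenyl and dimethylallyl diphosphate, the building blocks of isoprenoids. Its levels were 6.90 and 7.15 in CD4+ cells of naive mice and 7.15 and 6.89 in CD4+ cells of injected mice. They were 7.51, 7.72 and 7.62 in CD49b+ cells and 7.51, 7.76 and 7.58 in CD25+ cells. Both subsets lay above all 4 CD4+ arrays and overlapped each other. The difference from CD4+ cells of injected mice was 0.60 ± 0.12 in CD49b+ cells (adjusted p = 0.00275) and 0.59 ± 0.12 in CD25+ cells (adjusted p = 0.00414). The subsets themselves differed by 0.00 ± 0.11, with a 95% interval of −0.24 to 0.25. The other probe set of Idi1, 1451122_PM_at, was called in both (0.40 ± 0.11, adjusted p = 0.0153 in CD49b+ and 0.0217 in CD25+ cells).

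Fdft1 encodes squalene synthase, the first enzyme committed to sterols. Its levels were 7.07 and 7.15 in CD4+ cells of naive mice, 6.63 and 7.06 in CD4+ cells of injected mice, 7.57, 7.81 and 7.82 in CD49b+ cells and 7.31, 7.49 and 7.49 in CD25+ cells. The groups were ordered without overlap, with CD49b+ arrays above CD25+ arrays and both above all CD4+ arrays. The difference from CD4+ cells of injected mice was 0.89 ± 0.13 in CD49b+ cells (1.85-fold, adjusted p = 0.000459) and 0.58 ± 0.13 in CD25+ cells (adjusted p = 0.0073). The CD25+ call was lost against naive mice (0.32, adjusted p = 0.095) and without replicate 1 of the CD4+ cells of injected mice (0.37, adjusted p = 0.0758). CD49b+ and CD25+ cells differed by 0.31 ± 0.12 (adjusted p = 0.0838), and this passed with the replicate block (adjusted p = 0.0168).

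Sqle encodes squalene epoxidase, which adds the oxygen needed for ring closure. It stood at 7.17 and 7.34 in CD4+ cells of naive mice, 6.77 and 6.97 in CD4+ cells of injected mice, 7.32, 7.39 and 7.60 in CD49b+ cells and 6.55, 6.80 and 6.85 in CD25+ cells. CD49b+ arrays overlapped those of naive CD4+ cells, and CD25+ arrays overlapped those of CD4+ cells of injected mice. CD49b+ cells exceeded CD4+ cells of injected mice by 0.56 ± 0.12 (adjusted p = 0.00401) and CD25+ cells by 0.70 ± 0.11 (1.62-fold, adjusted p = 0.00118). Against naive mice, the CD49b+ difference was 0.18 (adjusted p = 0.268). CD25+ cells differed from CD4+ cells of injected mice by −0.14 ± 0.12 (adjusted p = 0.418), and from those of naive mice by −0.52 (adjusted p = 0.0101).

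Cyp51 encodes lanosterol demethylase, the first enzyme after ring closure. Its levels were 6.01 and 6.38 in CD4+ cells of naive mice, 6.08 and 6.10 in CD4+ cells of injected mice, 6.80, 6.79 and 7.07 in CD49b+ cells and 6.12, 6.36 and 6.34 in CD25+ cells. Every CD49b+ array lay above all others. The difference was 0.80 ± 0.13 from CD4+ cells of injected mice (1.74-fold, adjusted p = 0.000835) and 0.61 ± 0.12 from CD25+ cells (adjusted p = 0.00373). CD25+ cells differed from CD4+ cells of injected mice by 0.19 ± 0.13 (adjusted p = 0.298). A second probe set of Cyp51, 1422533_PM_at, was also higher in CD49b+ than in injected CD4+ cells (0.75 ± 0.24, adjusted p = 0.0294), but its difference of 0.36 ± 0.21 from CD25+ cells did not pass (adjusted p = 0.27). The third, 1422534_PM_at, was below the median on all 10 arrays and was not tested.

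**Figure D3:**
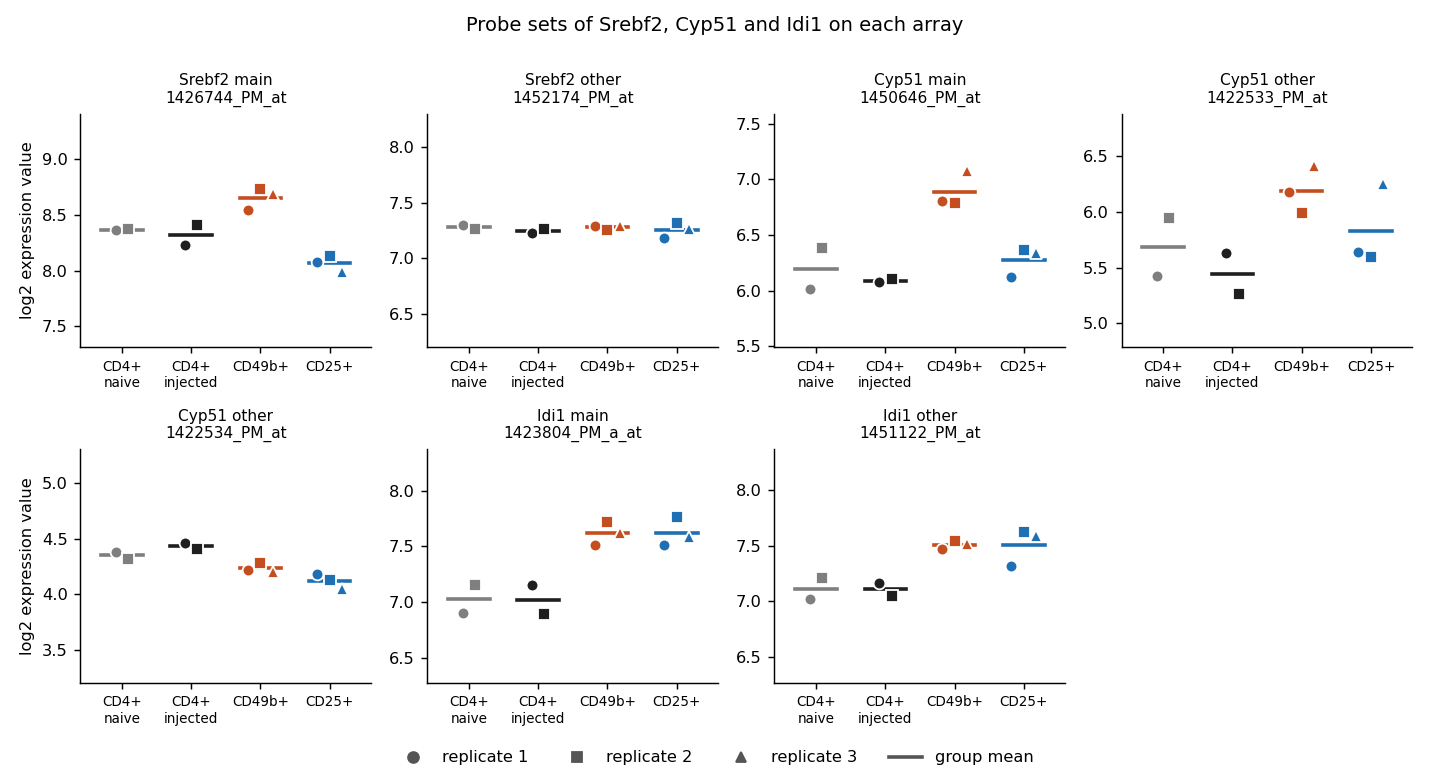
Log2 expression value (vertical axis) on each array for all probe sets of the 3 genes with more than 1 in the annotation used here. Lines mark the group means and symbols the replicate number. The main probe set of Srebf2 separates CD49b+ from CD25+ cells while the other stays between 7.18 and 7.32, and the 2 probe sets of Idi1 show the same ordering of groups.

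Ebp encodes the sterol isomerase that shifts a ring double bond late in the pathway. Its levels were 8.27 and 8.39 in CD4+ cells of naive mice, 7.90 and 8.17 in CD4+ cells of injected mice, 9.49, 9.71 and 9.55 in CD49b+ cells and 8.46, 8.79 and 8.68 in CD25+ cells. The CD49b+ arrays stood clear of all others, and the CD25+ arrays above the CD4+ arrays. Ebp had the largest difference of the 8 genes, 1.55 ± 0.12 between CD49b+ cells and CD4+ cells of injected mice (2.93-fold, adjusted p = 9.44e-06). CD25+ cells exceeded CD4+ cells of injected mice by 0.61 ± 0.12 (adjusted p = 0.00374), but those of naive mice by 0.31 (adjusted p = 0.0773). Between the subsets the difference was 0.94 ± 0.11 (1.92-fold, adjusted p = 0.000181).

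Hmgcs1 and Insig1 also varied most within groups. The pooled within-group SD was 0.45 for Hmgcs1 and 0.31 for Insig1, at percentiles 98.1 and 95 of all tested genes, while the other 6 genes had SDs from 0.09 to 0.16. Both were low on replicate 3 of the CD49b+ cells (−0.54 and −0.33 from the group mean) and on replicate 3 of the CD25+ cells (−0.63 and −0.33). On those 2 arrays the poly-A control transcripts that are added during labelling averaged 7.86 and 7.69 over 27 probe sets, against 5.13 to 6.36 on the other 8. The part of these controls in the levels of Hmgcs1 and Insig1 was not tested. Without both arrays, Hmgcs1 in CD49b+ cells stood −0.66 from CD4+ cells of injected mice and was still called (adjusted p = 0.0157), while Insig1 at −0.51 was not. In CD25+ cells the difference of Hmgcs1 was then −0.41 (adjusted p = 0.106), against −0.72 with all arrays.

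**Figure D4:**
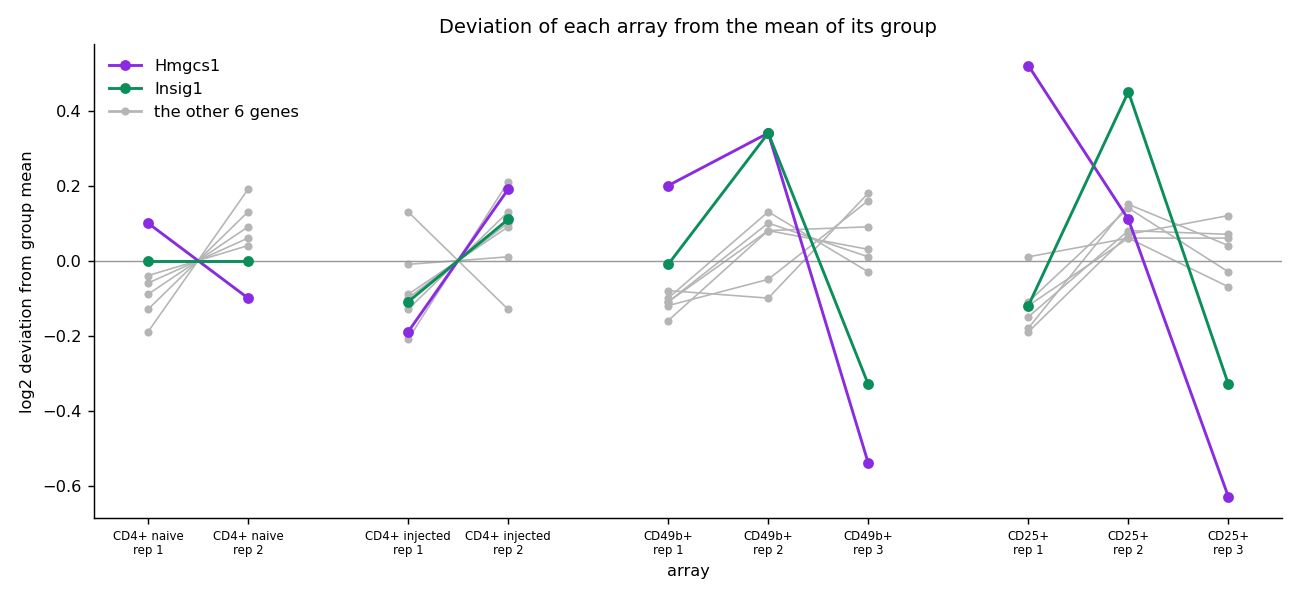
Deviation of each gene's log2 level from its group mean (vertical axis) on the 10 arrays (horizontal axis), with Hmgcs1 and Insig1 in colour and the other 6 genes in grey. Hmgcs1 reaches −0.54 and −0.63, and Insig1 −0.33, on the arrays numbered 3, where the grey lines lie between −0.07 and 0.18.

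Read along the pathway, 17 enzymes could be tested, of which 6 belong to the set and 11 do not. In CD49b+ cells against CD4+ cells of injected mice, 11 of the 17 were called higher, 2 lower and 4 not, with a median of 0.45; over all tested genes the shares were 29.9% higher and 23.5% lower. Of the 9 enzymes from lanosterol onward (a segment grouped after the values had been seen), 7 were higher and 0 lower; of the 5 up to farnesyl diphosphate, 2 were higher and 1 lower. In CD25+ cells 6 of the 17 were higher and 2 lower (20.8% and 17.8% of all tested genes). Between the subsets 7 were higher in CD49b+ cells and 0 lower (17.5% and 12.4%). Between the CD4+ groups 0 of the 17 were called.

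The 11 enzymes outside the set gave 6 higher and 1 lower in CD49b+ cells against CD4+ cells of injected mice (29.9% and 23.5% of all tested genes). Sc5d, a late sterol desaturase, was higher by 1.36 ± 0.09 in CD49b+ (adjusted p = 1.96e-06) and by 0.97 ± 0.09 in CD25+ cells (adjusted p = 2.97e-05). Dhcr7, the last reductase of one branch of the route, was higher by 0.93 ± 0.10 and 0.81 ± 0.10 (adjusted p = 5.94e-05 and 0.000223). Ggps1, which leaves the sterol route to make geranylgeranyl diphosphate, was lower in both, by −0.80 ± 0.14 and −1.05 ± 0.14 (adjusted p = 0.00132 and 0.000445). Probe sets disagreed for 2 of these: 1424709_PM_at of Sc5d was lower in both subsets (−0.59 and −0.62) and 1434520_PM_at higher (1.11 and 0.85), and 1419505_PM_a_at of Ggps1 was at 0.34 and 0.05, neither called, whereas 1429356_PM_s_at of Ggps1 was lower in both (−1.02 and −0.91, adjusted p = 0.0141 and 0.0313). Fdps, which makes farnesyl diphosphate, Lbr and Msmo1, which act after lanosterol, and Sc5d were higher in CD49b+ than in CD25+ cells, by 0.50, 0.45, 0.48 and 0.39. Lss was too dim to test.

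**Figure D5:**
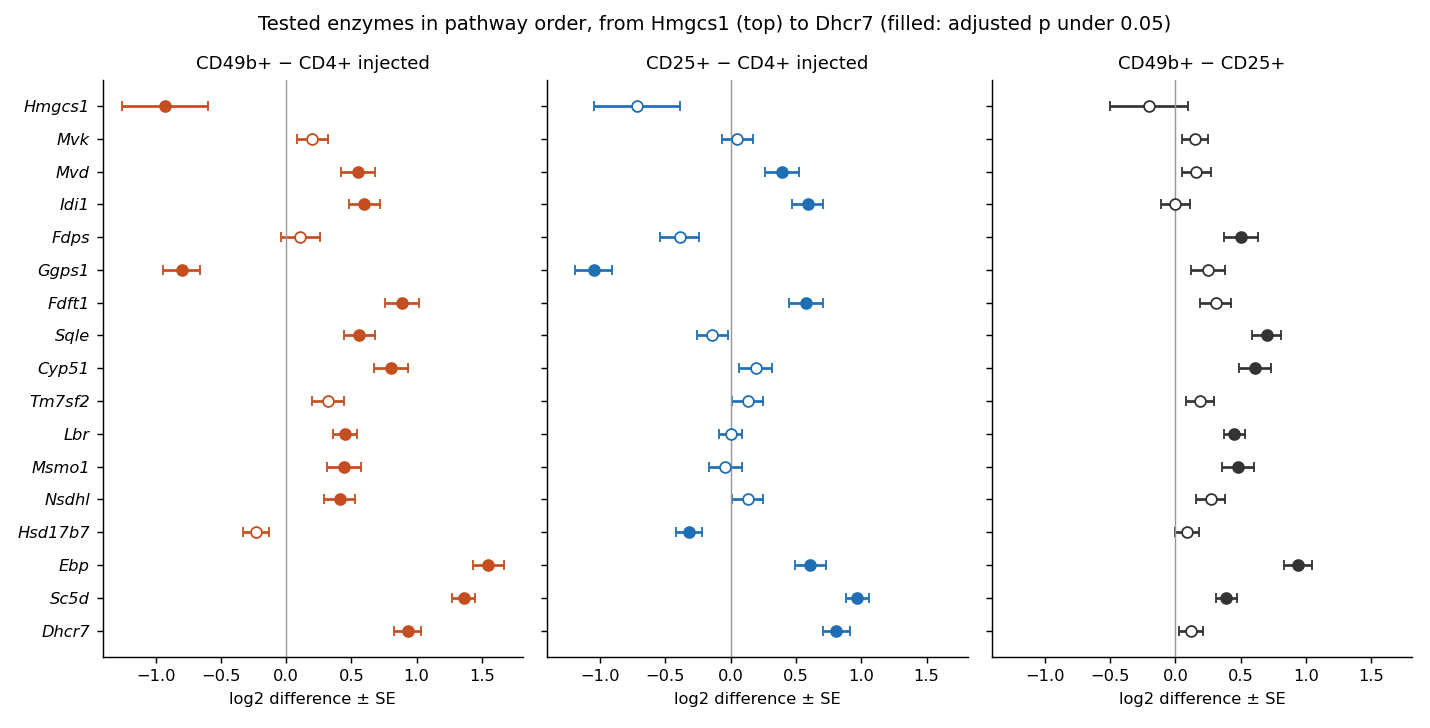
Log2 difference ± SE (horizontal axis) of the 17 tested enzymes in pathway order from Hmgcs1 at the top to Dhcr7 at the bottom, in 3 comparisons, with filled points for an adjusted p under 0.05. In CD49b+ cells against CD4+ cells of injected mice 11 filled points lie right of 0, and Hmgcs1 and Ggps1 lie left of it.

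Of 11 genes for SREBP processing and sterol sensing, 9 were tested. In CD49b+ cells against CD4+ cells of injected mice, 3 were higher and 1 lower, near or below the shares over all tested genes (29.9% and 23.5%). The pair of proteases that release SREBP2 moved apart: Mbtps2 was higher by 0.74 ± 0.14 (adjusted p = 0.00179) and Mbtps1 lower by −0.45 ± 0.10 (adjusted p = 0.00335). Insig2, the paralogue of Insig1, was higher by 0.69 ± 0.17 (adjusted p = 0.00654) where Insig1 was lower, and Ubxn8, an endoplasmic reticulum protein of the UBX family, was higher by 0.83 ± 0.16 (adjusted p = 0.00207). Against naive CD4+ cells, the CD49b+ arrays of Mbtps2 and Insig2 overlapped. Mbtps2 averaged 7.37 in naive CD4+, 6.82 in injected CD4+ and 7.57 in CD49b+ cells, and Insig2 averaged 7.20, 6.69 and 7.38. For Mbtps1 (9.19 in naive CD4+ and 8.73 in CD49b+ cells) and Ubxn8 (6.29 and 6.94) these arrays did not overlap. Scap, the escort, differed from injected CD4+ cells by 0.17 ± 0.08 in CD49b+ cells (adjusted p = 0.115). In CD25+ cells 0 of the 9 were called, and 2 were higher and 0 lower at an unadjusted p under 0.05. Srebf1 was not analysed here.

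Of 11 genes for sterol uptake and other SREBP2 targets, 9 were tested, and 2 were higher and 3 lower in CD49b+ cells than in CD4+ cells of injected mice, near the shares over all tested genes (29.9% and 23.5%). Tmem97, an endoplasmic reticulum protein induced by SREBP2, was called higher in CD49b+ (1.28 ± 0.17, adjusted p = 0.00024) and in CD25+ cells (0.65 ± 0.17, adjusted p = 0.0146). All 4 CD4+ arrays of Tmem97 (4.49 to 4.66) lay below the median of their array, so it passed the filter only through the subsets and the sizes are set against a dim signal. Npc1, which exports cholesterol from lysosomes, was higher by 0.67 ± 0.21 in CD49b+ cells (adjusted p = 0.0232), and Lipa, the lysosomal lipase that frees it, was lower by −0.61 ± 0.08 (adjusted p = 0.000265). Npc2, of the same list, was lower in CD49b+ cells by −0.55 ± 0.08 (adjusted p = 0.000274) and in CD25+ cells by −0.61 ± 0.08 (adjusted p = 0.00024). Mylip, a ubiquitin ligase that limits sterol uptake, was lower by −1.42 ± 0.09 in CD49b+ and by −0.98 ± 0.09 in CD25+ cells (adjusted p = 1.72e-06 and 3.23e-05). Acss2, which makes acetyl-CoA from acetate, was lower in CD25+ cells than in injected CD4+ cells (−0.85 ± 0.08, adjusted p = 3.51e-05), and CD49b+ cells exceeded CD25+ cells by 0.90 ± 0.07 (adjusted p = 1.18e-05). Over all 40 tested pathway genes outside the set, 16 were higher and 7 lower in CD49b+ cells against CD4+ cells of injected mice, beside 29.9% and 23.5% of all tested genes. In CD25+ cells 7 were higher and 6 lower, at or below the 20.8% and 17.8% over all genes. In CD49b+ against CD25+ cells 11 were higher and 5 lower, beside 17.5% and 12.4%. Between the CD4+ groups limma called 0, with 2 higher and 5 lower at an unadjusted p under 0.05.

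Other transcripts moved with the same groups. Mki67, a marker of dividing cells, exceeded its level in injected CD4+ cells by 4.19 ± 0.26 in CD49b+ and by 3.19 ± 0.26 in CD25+ cells (adjusted p = 1.68e-06 and 1.6e-05), and by 1.00 ± 0.23 in CD49b+ than in CD25+ cells (adjusted p = 0.00857). Of 6 genes of T cell activation and growth, 1 was higher and 2 were lower in CD49b+ cells (29.9% and 23.5% of all tested genes). The 2 were Myc (−0.74 ± 0.18, adjusted p = 0.00579) and Tfrc (−0.49 ± 0.14, adjusted p = 0.0157). In CD25+ cells 3 of the 6 were higher and 0 lower (20.8% and 17.8% of all tested genes), Tfrc among the 3 (0.62 ± 0.14, adjusted p = 0.00677). Pcna was another of the 3 (0.43 ± 0.12, adjusted p = 0.018). Unlike Mki67, Pcna was not called in CD49b+ against injected CD4+ cells (0.29 ± 0.12, adjusted p = 0.0613). Nor was it called in CD49b+ against CD25+ cells (−0.14 ± 0.11, adjusted p = 0.39). The 4 T cell markers with a probe set, of 6, were above the median in every group. The 8 myeloid and dendritic cell markers averaged 5.41 to 5.56 in naive CD4+, 4.96 to 5.04 in injected CD4+, 4.47 to 4.57 in CD49b+ and 4.65 to 4.78 in CD25+ cells. Natural killer cell markers (5 of 6 with a probe set) averaged 5.77 to 5.92, 5.55 to 5.70, 5.92 to 6.26 and 5.17 to 5.62 in the same order. Nkg7 (2.78 ± 0.39) and Ncr1 (0.65 ± 0.22) were called higher in CD49b+ than in injected CD4+ cells. Eomes (−0.91 ± 0.10) was called lower and Klrd1 (−0.39 ± 0.34) was not called. B cell markers (5 of 6) averaged 4.31 to 4.49 over all arrays. Cd79b was higher than in injected CD4+ cells by 0.96 ± 0.14 in CD49b+ cells (adjusted p = 0.000373) and by 1.53 ± 0.14 in CD25+ cells (adjusted p = 3.85e-05). All CD4+ arrays of Cd79b and Ncr1 lay below their median, so both passed the filter only through the subsets. Cd79a was not called, and Ms4a1, Pax5, Ighm and Klrb1c were too dim to test. The 4 regulatory T cell markers averaged 6.98 to 7, 6.37 to 6.58, 7.82 to 8.23 and 9.66 to 10.20 in naive CD4+, injected CD4+, CD49b+ and CD25+ cells. Il2ra averaged 4.17, 4.17, 6.29 and 8.83 in these groups, while Itga2, which encodes CD49b, differed in CD49b+ from injected CD4+ cells by −0.05 ± 0.11 (adjusted p = 0.717) but was higher than in CD25+ cells (0.31 ± 0.10, adjusted p = 0.0349). The difference between 3′ and 5′ probe sets of Gapdh was −0.01 to 0.26 on the CD4+ arrays and 0.23 to 0.69 on the others. The part of cell division, of other cell types and of RNA quality in the levels of the 8 genes was not tested.

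The mean pattern of the 8 genes, each centred on its own mean, ranged over 0.59 log2 units across the 10 arrays, and averages genes that differ in direction. The tested genes nearest to it, by the root mean square difference over the 10 arrays, were Gtf2h5 (0.044), Tmed9 (0.048), Dhx32 (0.061), Acaa1a (0.064) and Cope (0.065). Gtf2h5 for instance averaged 8.57 in naive CD4+, 8.55 in injected CD4+, 8.99 in CD49b+ and 8.69 in CD25+ cells. This is a description, with no test.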

How the data were processed

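RNA of 10 samples was hybridised to Affymetrix mouse arrays. The authors deposited 1 table of log2 expression values; per the submitters' processing notes, Affymetrix Expression Console 1.2.1 and GCRMA were used, with order and settings not given in the sources used here. Of 45141 probe sets, 104 controls were left out; 28898 have 1 gene symbol in the platform annotation used here, 551 several (not used) and 15588 none here. Each gene was represented by its probe set with the highest mean, and genes with fewer than 2 arrays above the 50th percentile of their array were set aside, leaving 11037. All 4 group means were fitted with limma 3.58.1 (R 4.3.3) by lmFit and eBayes, with 6 residual degrees of freedom, two-sided tests and Benjamini-Hochberg adjustment within each comparison; calls are at an adjusted p under 0.05. The number of arrays, 2 or 3 per group, limits the precision. The procedure was checked on simulated data.

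The 8 genes and the lists were chosen with earlier results of these data known. The text names the 8 genes, up to 4 called genes per list and comparison with the largest differences, Scap, and the 5 genes nearest in pattern. Mki67, Pcna, Myc and Tfrc come from the list for activation, and marker lists are given as levels. Deviations from group means of same-numbered CD49b+ and CD25+ arrays correlated at 0.16, 0.37 and 0.64 across genes. Those of CD4+ cells of injected mice correlated at 0.09 and 0.52 with CD49b+ arrays, and at 0.24 and 0.53 with CD25+ arrays. Arrays of naive mice correlated with the subsets at −0.20 to 0.08. The CD4+ groups share only 2 numbers with the subsets. The labels name no pairing and the main fit used none, so the replicate number entered only as a block in an alternative fit. Alternatives were other normalizations, filters, probe set rules, priors, comparators and blocks, and leaving out arrays.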

Additional observations from a re-analysis of the deposited data

How the results depend on the processing

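Across the alternatives, 461 of 492 values of the 8 genes kept their side of the threshold, some uncalled differences near 0 changing sign, 21 lost a call, 10 gained one and 0 called values changed sign. The calls lost or gained are given with each gene, apart from the loss of Hmgcs1 in CD49b+ cells with every probe set fitted (adjusted p = 0.0501) and with a trended, robust prior (0.0696). In CD49b+ cells against CD4+ cells of injected mice, 5 of the 8 genes were called with CD4+ cells of naive mice as comparator, all higher, against 8 in the comparison reported, and 5 to 8 when each replicate was left out in turn, the lowest without replicate 1 of the CD4+ cells of injected mice. With the replicate block, 1 of the 8 genes was called between the CD4+ groups (Sqle, lower by −0.39, adjusted p = 0.0476), and 6 of the 8 between CD49b+ and CD25+ cells against 4 without it; it changed no other call among them. Same-numbered arrays of the CD4+ groups deviated in opposite ways (correlation −0.21), and with their numbers crossed, an alternative added after seeing the data, 1 pathway gene was called there against 0. Without the arrays numbered 3, also added after seeing the data, 10 of the 40 other pathway genes were called between CD49b+ and CD25+ cells against 16. The shares of all tested genes called with the naive comparator, the block or arrays left out are not given here. Whether these counts moved more than the whole array did was therefore not tested. Msmo1 in CD49b+ cells against CD4+ cells of injected mice was at −0.09 (adjusted p = 0.367) with the mean of its probe sets, one of them dim, against 0.44. That mean gives equal weight to the dim probe set, 1459627_PM_at, which averaged 3.53 in CD49b+ and 4.15 in injected CD4+ cells. The cause of the lower level of that probe set was not tested.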

Other observations

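Genes of fatty acid synthesis and SREBP1 targets were also measured, 8 of 13 with a testable probe set. In CD49b+ cells against CD4+ cells of injected mice, 4 were higher and 1 lower, beside 29.9% and 23.5% of all tested genes. Acaca, which makes malonyl-CoA, was higher by 0.87 ± 0.08 (adjusted p = 2.18e-05), and Elovl6, an elongase of long-chain fatty acids, by 0.78 ± 0.10 (adjusted p = 0.000187). Both were higher in CD25+ cells too, by 0.67 ± 0.08 and 0.64 ± 0.10 (adjusted p = 0.000173 and 0.00102). Pnpla3, a lipase-like protein of lipid droplets, was lower in CD49b+ cells by −0.58 ± 0.09 (adjusted p = 0.000513) and in CD25+ cells by −0.53 ± 0.09 (adjusted p = 0.00126). Between the subsets, Acly, which supplies cytosolic acetyl-CoA, was higher in CD49b+ cells by 0.27 ± 0.09 (adjusted p = 0.0387), and Fasn, the fatty acid synthase, lower by −0.36 ± 0.09 (adjusted p = 0.0133).

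Of 9 genes of sterol efflux, esterification and LXR signalling, 3 were tested. Abcg1, a sterol exporter induced by LXR, was lower in CD49b+ cells than in CD4+ cells of injected mice by −0.91 ± 0.12 (adjusted p = 0.000166) and than in CD25+ cells by −0.80 ± 0.10 (adjusted p = 0.000347). Its other probe set, 1455221_PM_at, was lower too, by −1.66 ± 0.29 and −1.04 ± 0.26. Nceh1, a cholesteryl ester hydrolase, was higher in CD49b+ and CD25+ cells than in CD4+ cells of injected mice, by 0.84 ± 0.13 and 0.66 ± 0.13 (adjusted p = 0.000618 and 0.00362).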
